A study of Mus musculus with 6 samples.

Results

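The genes here encode nuclear subunits of succinate dehydrogenase (complex II), the cytochrome bc1 complex (complex III) and the ATP synthase, plus cytochrome c. Exceptions are Atp5s and Atp5sl, described below. The genes were taken by symbol as Sdha to Sdhd, every symbol beginning with Uqcr or Atp5, Cyc1 and Cycs. An adjusted read count of at least 1 in 3 or more of the 6 libraries was required. The symbols matched 31 of 23404 genes in the table, and all 31 passed that filter on low values, as did 12907 genes in all. Of the 31, 4 belong to complex II, 10 to complex III and cytochrome c, and 17 carry an Atp5 symbol. Messenger RNA had been sequenced from C57BL/6J mouse cardiomyocytes separated by flow sorting into sub-populations that differ in FITC signal, the channel that reads green autofluorescence, and in FSC, the light scattered forward. The gate called FITChigh here combined high FITC with dim FSC, and the gate called FITCdim combined dim FITC with high FSC. Each has 3 libraries, which the series text calls biological replicates. Both gates share the strain, and the labels used here name no allele, treatment, age or sex for either. The comparison of the gates asks how their RNA differed, and the series title names as its aim the isolation of ventricular cardiomyocytes by autofluorescence.

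The respiratory chain of the inner mitochondrial membrane passes electrons from metabolic fuels to oxygen and pumps protons as it does so. Complex II takes electrons from succinate through a flavin and iron-sulfur centres and is also an enzyme of the TCA cycle. Complex III takes them on from ubiquinol and hands them to cytochrome c, a small soluble protein that carries them to cytochrome c oxidase (complex IV). The ATP synthase lets protons flow back through a rotating ring of c subunits in the membrane (Fo), which turns a central stalk inside a catalytic head (F1) while a peripheral stalk holds the head still. Heart muscle is densely packed with mitochondria and depends on this system for most of its ATP. One subunit of complex III and some of the ATP synthase are encoded by mitochondrial DNA and were not analysed here.

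Promoter sequence is shown for 4 of these genes: Cycs, which had the largest difference between the gates, Atp5g1 and Atp5g3, which encode the same mature c subunit and had very different differences, and Sdha, whose window held a motif more than once. The stretches are from RefSeq (GRCm38.p6), run 5′ to 3′ on the strand of the gene, and end just before the start of the gene, or before the GENCODE start where that lies further upstream. They are chr6:50566570-50566819 (Cycs), chr13:74350281-74350490 (Sdha), chr11:96075671-96075881 (Atp5g1) and chr2:73911327-73911576 (Atp5g3), all on the minus strand. Capitals mark matches to the motif letters given in the next paragraph.
Cycs: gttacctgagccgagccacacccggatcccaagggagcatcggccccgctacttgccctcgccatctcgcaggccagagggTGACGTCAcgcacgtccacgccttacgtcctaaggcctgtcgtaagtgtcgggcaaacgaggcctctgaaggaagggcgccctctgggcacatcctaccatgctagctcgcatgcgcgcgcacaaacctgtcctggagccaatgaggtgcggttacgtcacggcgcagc
Sdha: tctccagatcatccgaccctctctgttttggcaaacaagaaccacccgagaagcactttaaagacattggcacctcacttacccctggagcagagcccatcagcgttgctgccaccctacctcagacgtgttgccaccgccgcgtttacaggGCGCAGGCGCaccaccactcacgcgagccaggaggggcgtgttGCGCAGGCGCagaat
Atp5g1: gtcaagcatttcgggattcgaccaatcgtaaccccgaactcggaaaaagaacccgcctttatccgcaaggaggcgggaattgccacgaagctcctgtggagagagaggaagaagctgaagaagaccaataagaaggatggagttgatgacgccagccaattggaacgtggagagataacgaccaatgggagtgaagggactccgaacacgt
Atp5g3: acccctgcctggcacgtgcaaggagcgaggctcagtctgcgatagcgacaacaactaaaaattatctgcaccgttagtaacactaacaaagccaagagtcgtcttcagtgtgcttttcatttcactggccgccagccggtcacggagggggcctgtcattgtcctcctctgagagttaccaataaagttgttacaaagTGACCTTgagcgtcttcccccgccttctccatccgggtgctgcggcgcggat

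Windows from 250 bases before to 50 bases after the start were searched on both strands for letters of sites of factors known to act on nuclear genes of respiration. A window was found for 25 of the 31 genes. The site of NRF1 occurred in 9 of the 25, against 5.19% of 27025 genes with a window. The GABPA letters CCGGAAG occurred in 9 of the 25 against 9.93%, the ERR letters AAGGTCA in 5 against 5.38% and the YY1 letters ATGGCGG in 3 against 4.69%. The CREB letters TGACGTCA, added after the windows had been seen, occurred in 2 (Cycs and Uqcrfs1) against 2.03%. No matches of different motifs overlapped in these genes (0 overlaps). Sdha held the NRF1 site starting 98 and 55 bases before the start, Cycs the CREB letters 169 bases before it and Atp5g3 the ERR letters on the opposite strand 52 bases before it. The full window of Atp5g3 also held the NRF1 site, outside the stretch printed. The stretch printed for Atp5g1 held none of the 5 motifs. A match is a string of letters and not a shown binding site.

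Recovered reads numbered from 1589825 to 2931045 per FITChigh library and from 1705626 to 3345996 per FITCdim library. The deposited values are adjusted read counts, whose totals were still higher in FITChigh (2333473 to 2443707) than in FITCdim (2030583 to 2112872). Across the table, 324 genes were higher and 1748 lower in FITChigh by limma-trend, so higher genes made up 15.6% of the calls. That share was 1.84% with every library scaled to one common total, 27.8% after quantile normalization and 0.206% with libraries scaled to 15 cardiomyocyte markers. Over all tested genes the median difference, which was -0.01 (log2) as deposited, was -0.20, 0.13 and -0.44 under these scalings. The 15 cardiomyocyte markers, Myh6, Tnnt2 and Actc1 among them, were present in every library, with summed levels of 453334 to 488143 adjusted read counts in FITChigh and 298365 to 351568 in FITCdim. In bulk samples such as these, fewer cells of a type and less RNA per cell cannot be told apart.

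Some genes of these complexes were higher in FITChigh in the values as deposited, among them Cycs, Uqcrb, Atp5d and Atp5g3. Of the 31 genes, 9 rose (29.0%), 0 fell and 22 did not pass the test. The background was 2.51% of all 12907 tested genes called higher and 13.5% called lower, and 5.12% called higher (7.68% lower) among the 5588 genes with a mean level at or above the lowest of the 31 (53.8 adjusted read counts). Log2 fold changes of the 31 ran from 0.10 to 0.72 around a median of 0.41 (1.33-fold). By complex, 0 of 4 rose in complex II, 6 of 10 in complex III and cytochrome c and 3 of 17 among the Atp5 genes. All 31 differences were above 0 in the values as deposited, as were those of 6381 of all 12907 tested genes. Genes with a mean level at or above the lowest of the 31 had a median difference of 0.11. Of the 31, 29 were above 0 with one common total, 28 after quantile normalization and 12 with cardiomyocyte marker scaling, where the median was -0.04. Whether the complexes differed from each other was not tested.

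The call of a rise used limma-trend on log2(adjusted read count + 1), with Benjamini-Hochberg adjustment over all tested genes at 0.05. The number that rose depended on single libraries. Leaving out FITChigh replicate 1, 2 or 3 gave 3, 4 and 9 genes, with 0.519%, 1.43% and 2.61% of all tested genes called higher. Leaving out FITCdim replicate 1, 2 or 3 gave 1, 9 and 3 genes, with 0.659%, 1.73% and 1.67% called higher. It was 3 with one common total (0.318% of all tested genes), 1 after quantile normalization (3.62%) and 0 without the mean-variance trend (0.535%). With cardiomyocyte marker scaling it was 0, where 0.062% of all tested genes were called higher and 30.1% lower. Robust limma and limma-voom on recovered reads each called 11 genes higher, against 2.81% and 2.79% of all tested genes. With the title tag that both gates share as a replicate block, 28 were called higher, against 8.24% of all tested genes. Whether same-tagged libraries belong together was not settled.

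**Figure D1:**
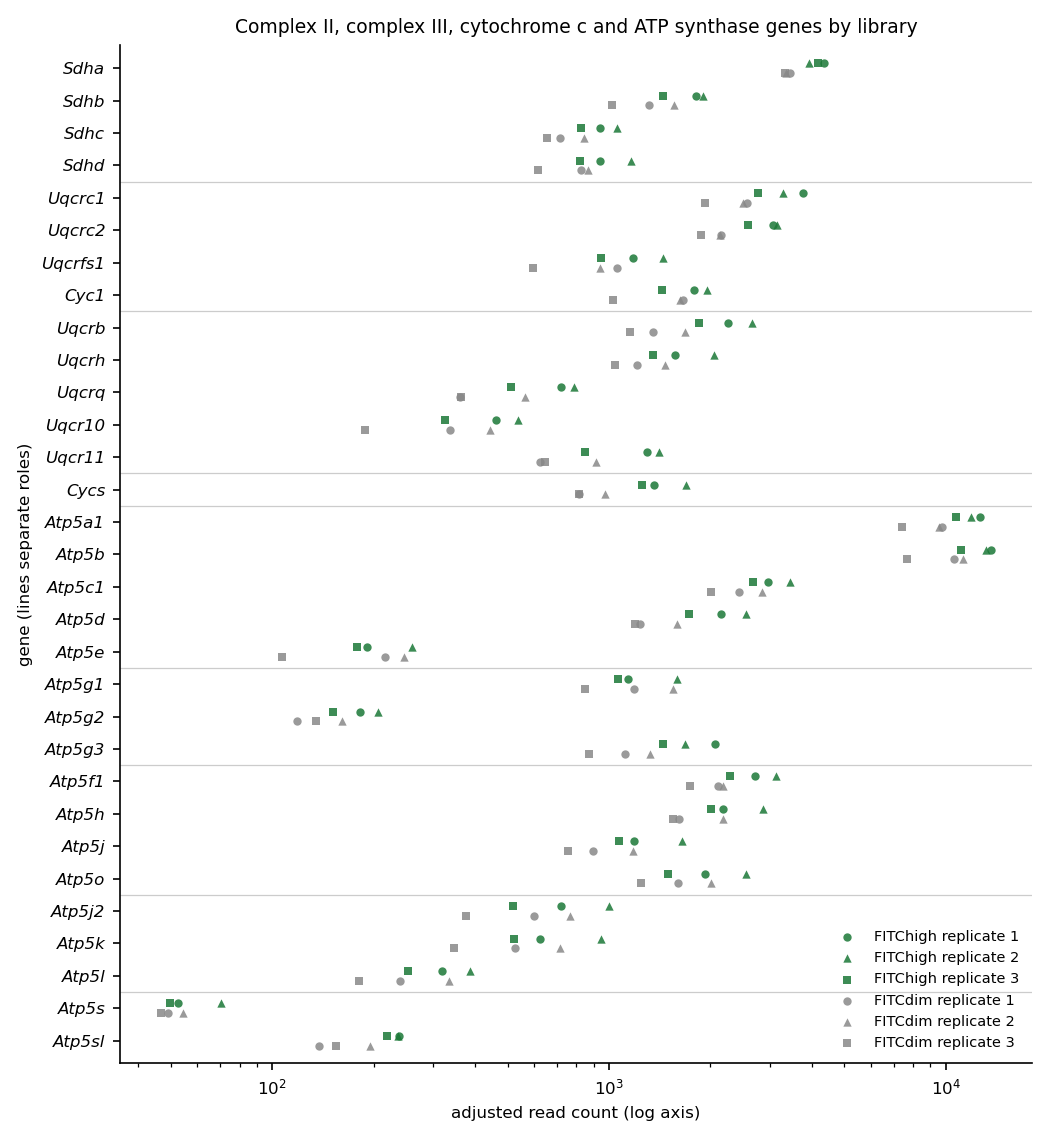
Adjusted read count (log axis) of each of the 31 genes in each of the 6 libraries, green for FITChigh and grey for FITCdim, with circles, triangles and squares for replicates 1, 2 and 3. In 10 of the 31 genes all FITChigh points lie to the right of all FITCdim points, and in most genes the triangle is the highest and the square the lowest of its gate.

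The 4 subunits of complex II did not pass the test, and limma-voom on recovered reads also called 0 of them. All 4 were higher in FITChigh at an unadjusted p under 0.05 in limma-trend, as were 1125 of all 12907 tested genes. That is also the background of such unadjusted counts further on where they are of the values as deposited. With the title tag as a replicate block all 4 passed in limma-trend, where 8.24% of all tested genes were called higher. Their log2 fold changes lay close together, from 0.30 to 0.42 (median 0.35). Sdha, the flavoprotein that oxidises succinate, stood at 4352, 3925 and 4179 adjusted read counts in the FITChigh libraries, replicates 1 to 3 in that order here and throughout, and at 3446, 3357 and 3323 in FITCdim. The gates did not overlap, and the values varied little within each. Its log2 fold change was 0.30 (SE 0.14, adjusted p = 0.16), with a 95% interval of 0.01 to 0.59.

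The iron-sulfur subunit Sdhb had the largest difference of complex II, at 1812, 1900 and 1447 in FITChigh against 1318, 1558 and 1020 in FITCdim (log2 fold change 0.42, SE 0.16, adjusted p = 0.10). Its lowest FITChigh value lay below its highest FITCdim value. The membrane anchors Sdhc and Sdhd, which hold the haem and the ubiquinone site with Sdhb, stood at 825 to 1054 against 653 to 842 and at 822 to 1164 against 616 to 864, and both overlapped between the gates. Their log2 fold changes were 0.35 and 0.34.

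Complex III held most of the genes that rose. Among its core proteins and electron carriers, Uqcrc1 and Uqcrc2 rose and Uqcrfs1 and Cyc1 did not pass. Uqcrc2, the core 2 protein on the matrix side (chromosome 7, 120635176 to 120659524 in mm10), stood at 3067, 3161 and 2591 adjusted read counts in FITChigh against 2149, 2133 and 1876 in FITCdim. Every FITChigh library was above every FITCdim library (log2 fold change 0.52, SE 0.14, adjusted p = 0.017). Uqcrc1, the core 1 protein (chromosome 9, 108936633 to 108949623), stood at 3765, 3292 and 2775 against 2563, 2494 and 1923, again without overlap (0.49, SE 0.16, adjusted p = 0.0435).

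The Rieske iron-sulfur protein Uqcrfs1, which takes the first electron from ubiquinol, stood at 946 to 1447 against 596 to 1056 and overlapped between the gates (0.48, SE 0.20, adjusted p = 0.12). Cyc1, the cytochrome c1 that passes electrons to cytochrome c, stood at 1440 to 1949 against 1025 to 1662 (0.29, SE 0.18, adjusted p = 0.33). It had the smallest difference of the complex, with a 95% interval of -0.10 to 0.67.

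Among the 5 small subunits, which surround the catalytic core and carry no redox centre, Uqcrb, Uqcrq and Uqcr11 rose. Uqcrb (chromosome 13, 66900617 to 66905378) stood at 2258, 2658 and 1855 adjusted read counts against 1355, 1680 and 1156, with no overlap (log2 fold change 0.69, SE 0.16, adjusted p = 0.0078). Uqcr11 (chromosome 10, 80402997 to 80406830) stood at 1300, 1409 and 851 against 623, 915 and 644, where FITChigh replicate 3 fell below FITCdim replicate 2 (0.70, SE 0.19, adjusted p = 0.018). Uqcrq (chromosome 11, 53427922 to 53430831) stood at 721, 785 and 511 against 362, 565 and 363, and the same pair of libraries overlapped (0.65, SE 0.19, adjusted p = 0.025). Uqcrh, the hinge protein, stood at 1355 to 2047 against 1042 to 1465 and did not pass (0.41, adjusted p = 0.11). Uqcr10 stood at 326 to 538 against 188 to 444 and did not pass either (0.51, adjusted p = 0.195), with a 95% interval of -0.02 to 1.03.

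Cycs, which encodes somatic cytochrome c (chromosome 6, 50562563 to 50566538), had the largest difference of the 31 genes. The FITChigh libraries held 1359, 1690 and 1252 adjusted read counts of Cycs and the FITCdim libraries 812, 971 and 814, from 4098 and 2839 recovered reads. The lowest FITChigh value was above the highest FITCdim value. The log2 fold change was 0.72 (SE 0.14, adjusted p = 0.0021), with a 95% interval of 0.42 to 1.02. Cycs remained called without each of the 6 libraries in turn, with one common total (0.52, adjusted p = 0.013) and after quantile normalization (0.48, adjusted p = 0.020). It was not called with cardiomyocyte marker scaling (0.27, adjusted p = 0.147) or without the mean-variance trend (adjusted p = 0.0536), and the adjusted p ran from 0.0023 to 0.0257 over the left-out libraries. Processed copies of Cycs exist elsewhere in the genome, and how reads that fit several places were counted is not given in the sources used here.

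**Figure D2:**
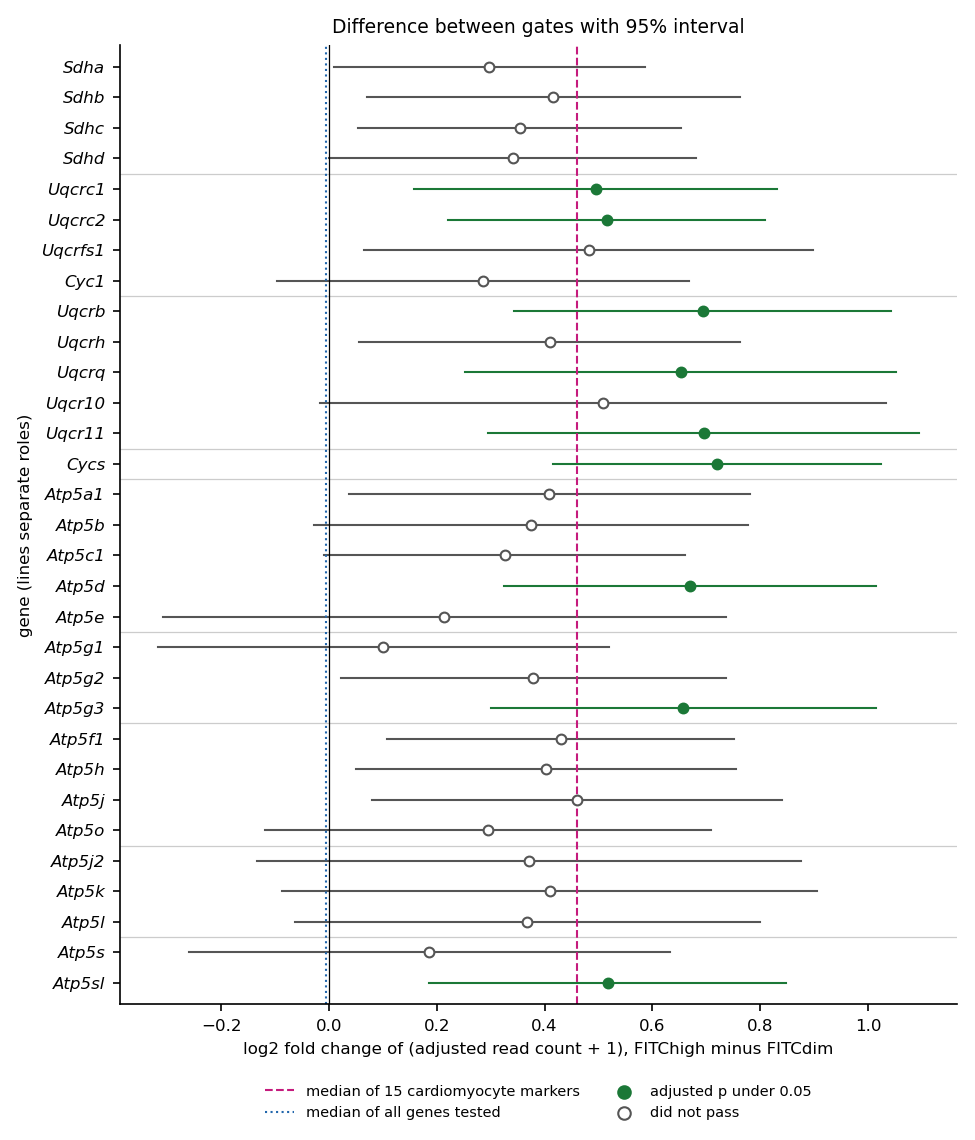
Log2 fold change of each gene on the log2(adjusted read count + 1) scale, FITChigh minus FITCdim, with its 95% interval from limma-trend. Filled green points passed the adjusted test. The dashed line is the median of 15 cardiomyocyte markers (0.46), the dotted line that of all tested genes (-0.01), and the 31 points spread around the dashed line between 0.10 and 0.72.

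In the catalytic head and central stalk of the ATP synthase 1 of 5 genes rose. Atp5d, the delta subunit at the foot of the central stalk (chromosome 10, 80138632 to 80145818), stood at 2158, 2552 and 1723 adjusted read counts in FITChigh against 1235, 1595 and 1194 in FITCdim. Every FITChigh value was above every FITCdim value (log2 fold change 0.67, SE 0.16, adjusted p = 0.0089). The catalytic beta subunit Atp5b, whose adjusted read count was the highest of the 31, stood at 13580, 13189 and 11106 against 10550, 11257 and 7689. FITCdim replicate 2 exceeded FITChigh replicate 3, and the difference did not pass (0.37, SE 0.19, adjusted p = 0.215).

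Its partner in the head, the alpha subunit Atp5a1, stood at 12605, 11920 and 10746 against 9735, 9529 and 7438, without overlap (0.41, SE 0.17, adjusted p = 0.14). Atp5a1 passed in robust limma (adjusted p = 0.0469) and in limma-voom (adjusted p = 0.036). The gamma subunit Atp5c1, the shaft that turns in the head, stood at 2685 to 3455 against 2002 to 2851 (0.33, adjusted p = 0.19). Atp5e, the epsilon subunit beside delta, stood at 179 to 260 against 107 to 246 (0.21, SE 0.25, adjusted p = 0.63), and its difference was -0.15 without FITCdim replicate 3. The log2 ratio of Atp5d to Atp5b was -2.57 ± 0.18 for FITChigh against -2.87 ± 0.21 for FITCdim (SD, n = 3 per gate) and overlapped between the gates. Within libraries the ratio of the Atp5b to the Atp5a1 value overlapped between the gates, with 1.07 ± 0.04 for FITChigh against 1.10 ± 0.08 for FITCdim (SD, n = 3 per gate).

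The c ring is the rotor of the enzyme, and Atp5g1, Atp5g2 and Atp5g3 encode one and the same mature c subunit behind different import peptides. Atp5g3 (chromosome 2, 73908447 to 73911326) rose. It stood at 2070, 1687 and 1444 adjusted read counts in FITChigh against 1117, 1320 and 871 in FITCdim, without overlap (log2 fold change 0.66, SE 0.17, adjusted p = 0.012). Atp5g1 (chromosome 11, 96068852 to 96075670) had the smallest difference of all 31 genes, at 1136, 1594 and 1060 against 1183, 1545 and 851. Its gates overlapped almost completely (0.10, SE 0.20, adjusted p = 0.79), with a 95% interval of -0.32 to 0.52. The sign of the Atp5g1 difference turned with one common total (-0.10), after quantile normalization (-0.18), with cardiomyocyte marker scaling (-0.35), without FITChigh replicate 2 (-0.08) and without FITCdim replicate 3 (-0.12). The least counted of the 3, Atp5g2, stood at 151 to 206 against 118 to 161 (0.38, adjusted p = 0.15).

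The balance of the c subunit genes can be read within each library, where library scaling cancels. Atp5g3 made up 61.1%, 48.4% and 54.4% of the adjusted read counts of the 3 genes in the FITChigh libraries and 46.2%, 43.6% and 46.9% in FITCdim. All FITChigh libraries lay above all FITCdim libraries, the lowest FITChigh share (48.4%) being close to the highest FITCdim share (46.9%). The log2 ratio of Atp5g3 to Atp5g1 was 0.87, 0.08 and 0.45 per FITChigh library and -0.08, -0.23 and 0.03 per FITCdim library, again without overlap. The pair was singled out after its values had been seen, and this ratio was not tested. The shares are of reads and not of molecules, since transcript lengths differ between the genes.

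**Figure D3:**
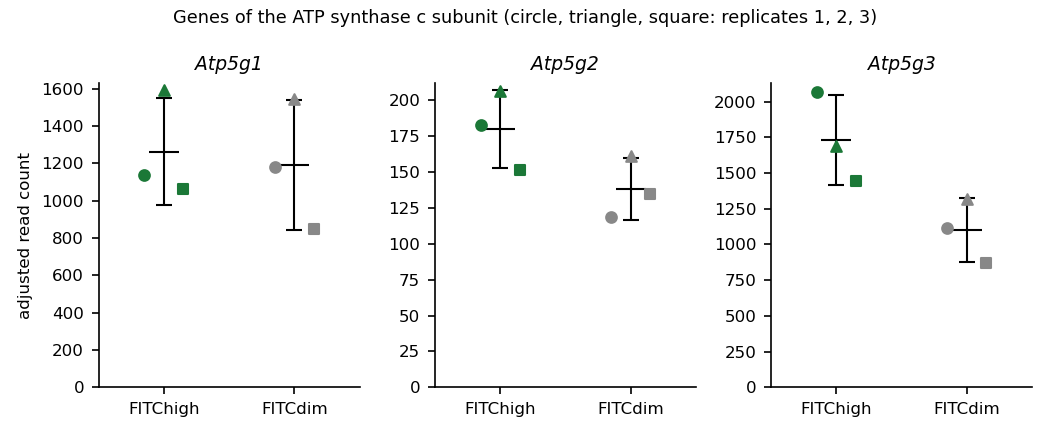
Adjusted read count of Atp5g1, Atp5g2 and Atp5g3 in each library of the 2 gates, on axes that start at 0, with the mean and SD of 3 libraries in black. Atp5g3 is higher in all FITChigh libraries (1444 to 2070) than in all FITCdim libraries (871 to 1320), whereas the Atp5g1 points of both gates cover nearly the same range.

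The peripheral stalk, which keeps the head from turning with the rotor, held no gene that passed in limma-trend (0 of 4), while 3 of 4 had an unadjusted p under 0.05. Atp5f1, the b subunit that spans the stalk, came closest at 2717, 3135 and 2294 adjusted read counts against 2111, 2181 and 1735. The gates did not overlap (log2 fold change 0.43, SE 0.15, adjusted p = 0.067), and limma-voom on recovered reads called it (adjusted p = 0.0445). Atp5j, coupling factor 6, stood at 1071 to 1643 against 758 to 1178 (0.46, adjusted p = 0.097). Atp5h, the d subunit, stood at 2010 to 2861 against 1550 to 2175 (0.40, adjusted p = 0.12). Atp5o, the OSCP subunit that joins the stalk to the top of the head, stood at 1494 to 2548 against 1243 to 2006 (0.29, adjusted p = 0.36).

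The small membrane subunits Atp5j2, Atp5k and Atp5l, which help the enzyme to dimerise, were tightly grouped at log2 fold changes of 0.37, 0.41 and 0.37. None of the 3 passed in limma-trend, also at an unadjusted p under 0.05 (0 of 3), and limma-voom called 0. Atp5j2, the f subunit, stood at 520.1 to 1002 adjusted read counts against 377 to 767, and Atp5l, the g subunit, at 253 to 388 against 181 to 335. Atp5k, the e subunit, stood at 623, 948 and 521 against 528, 716 and 348. Its range within a gate was larger than the difference between gates. In Atp5k, as in most of the 31 genes, FITChigh was the higher gate at each replicate number. The 95% interval of its difference ran from -0.09 to 0.90. A rise as large as that of Cycs lies inside that interval, and whether the 2 genes differed was not tested.

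Atp5s and Atp5sl carry an Atp5 symbol but do not encode core subunits. Atp5s encodes coupling factor B, and Atp5sl, now named Dmac2, is an assembly factor of complex I. Atp5sl (chromosome 7, 25619414 to 25625551) rose, at 238, 237 and 219 adjusted read counts against 138, 196 and 155, without overlap (log2 fold change 0.52, SE 0.16, adjusted p = 0.032). Atp5s was the least counted of the 31 genes, at 49.8 to 70.6 against 46.9 to 54.2, from 165 and 166 recovered reads (0.19, adjusted p = 0.62). Without these genes, 8 of 29 rose and 0 fell.

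Over all 31 genes the gates were separated in 10, that is, every FITChigh value lay above every FITCdim value. The same held for 11.4% of all tested genes, and for 19.2% of those with a mean level at or above the lowest of the 31. The genes varied together within a gate. FITChigh replicate 2 was the highest FITChigh library in 25 of 31 genes and FITChigh replicate 3 the lowest in 30. In FITCdim, replicate 2 was the highest in 25 and replicate 3 the lowest in 26. Libraries of the same replicate number carry the same title tag in both gates, so same-tagged libraries shared this order. The SD within a gate given below includes that shared part. The median deviation of the 31 genes from their gate's mean was 0.25 on the log2 scale in FITChigh replicate 2, -0.24 in FITChigh replicate 3, 0.26 in FITCdim replicate 2 and -0.26 in FITCdim replicate 3, while the median over all tested genes lay between -0.01 and 0.03 in every library. The median SD of these genes within a gate was 0.26 in FITChigh and 0.27 in FITCdim, against 0.186 and 0.187 for all genes of their level or above.

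Summed per library, the 31 genes held 70363, 74714 and 58701 adjusted read counts in the FITChigh libraries and 52812, 57959 and 41921 in FITCdim. Every FITChigh sum was above every FITCdim sum, the closest pair being FITChigh replicate 3 and FITCdim replicate 2. Complex III and cytochrome c made up 24.8%, 25.4% and 23.7% of these sums in FITChigh and 23.0%, 22.8% and 23.0% in FITCdim, without overlap. The share of complex II (11.5% ± 0.8 against 12.3% ± 1.0) and that of the Atp5 genes (63.8% ± 0.1 against 64.8% ± 1.1) overlapped between the gates (SD, n = 3 each).

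Of the assembly factors and partners of the same complexes, 0 of 21 passed in limma-trend or limma-voom. Their list also holds Usmg5 and 2010107E04Rik, small subunits of the ATP synthase without an Atp5 symbol in the table. Whether their differences were smaller than those of the 31 genes was not tested. For complex II the median log2 fold change of 4 assembly genes was 0.12, with 0 at an unadjusted p under 0.05. For complex III it was 0.24 over 7 genes, with 2 at an unadjusted p under 0.05. The largest was that of Bcs1l, which inserts the Rieske protein, at 0.48 (adjusted p = 0.087). For the ATP synthase it was 0.28 over 10 genes, 1 of them at an unadjusted p under 0.05. That one was Atpif1, the inhibitor that stops the enzyme from running backwards, at 378, 409 and 317 adjusted read counts against 272, 309 and 238 (0.43, SE 0.15, adjusted p = 0.060). Slc25a4, the heart form of the ADP/ATP carrier, stood at 13261 to 21009 against 10405 to 14391 (0.40, SE 0.21, adjusted p = 0.23).

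The proton-pumping complexes on either side of this part of the chain had medians close to that of the 31 genes. Of 36 tested genes of a list of complex I subunits, which also holds the paralog Ndufa4l2, 6 rose, 1 fell and 29 did not pass (median 0.43), and of 16 nuclear subunits of complex IV, 2 rose, 1 fell and 13 did not pass (median 0.34). Those that rose were Ndufs6 (0.76), Ndufa1 (0.70), Ndufb10 (0.66), Ndufa6 (0.65), Ndufa12 (0.57) and Ndufs1 (0.40), and the muscle forms Cox6a2 (0.91) and Cox7a1 (0.54). Cox8b, another muscle form, did not pass (0.24, adjusted p = 0.48). The genes that fell were Ndufa4l2, at 5.66 ± 2.36 adjusted read counts against 20.7 ± 2.00 (log2 fold change -1.77, adjusted p = 0.0039), and Cox4i2, at 3.93 ± 1.75 against 11.8 ± 3.54 (-1.40, adjusted p = 0.035; SD, n = 3 each). Both are scarce paralogs of subunits of the chain. Whether these complexes differed from the 31 genes was not tested.

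The differences were of the size found for the contractile and other markers of the myocyte itself. The 15 cardiomyocyte markers had a median log2 fold change of 0.46 (2 rose, 0 fell, 13 did not pass, 10 at an unadjusted p under 0.05), next to 0.41 for the 31 genes. Robust limma and limma-voom each called 10 of the 15 markers higher. The mean log2 level of the 31 genes minus that of these markers overlapped between the gates (-4.03 ± 0.17 for FITChigh, -4.01 ± 0.26 for FITCdim, SD, n = 3 per gate). The summed level of the 31 genes was 14.4%, 15.5% and 12.9% of the summed marker level in FITChigh and 17.7%, 17.1% and 11.9% in FITCdim, and the gates overlapped. With every library scaled to the geometric mean of the markers, 0 of 31 genes passed in limma-trend and 0 had an unadjusted p under 0.05. This scaling was chosen after seeing the data, and under it 0.062% of all tested genes were called higher and 30.1% lower. With the title tag as a replicate block as well, 4 of the 31 rose and Atp5g1 fell, against 0.294% and 41.9% of all tested genes. The largest differences were then those of Cycs (0.27), Uqcr11 (0.24), Uqcrb (0.24), Atp5d (0.22) and Atp5g3 (0.20) on one side and of Atp5g1 (-0.35) on the other.

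Most markers of other cells were lower in FITChigh. Endothelial markers were lower in FITChigh in 10 of 10 tested genes, with a summed level of 715 to 1018 adjusted read counts against 5146 to 5731 in FITCdim. Fibroblast markers were lower in 7 of 7 tested (53.5 to 77.7 against 404 to 796), macrophage and leukocyte markers in 8 of 8 (81.3 to 116 against 406 to 919) and mural markers in 6 of 8 (1383 to 1836 against 1880 to 2475). The mural markers that did not pass were Abcc9 (log2 fold change 0.10, adjusted p = 0.777) and Acta2 (-0.45, adjusted p = 0.0854). Atrial myocyte markers were lower in 6 of 6 tested (234 to 493 against 1232 to 2603). Of 5 erythroid markers 1 was tested and lower (summed level 1.86 to 7.43 against 11.6 to 21.8), and Hba-a1 and Hba-a2 were listed at 0 in every library. The part of these cells in the differences of the 31 genes was not tested.

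**Figure D4:**
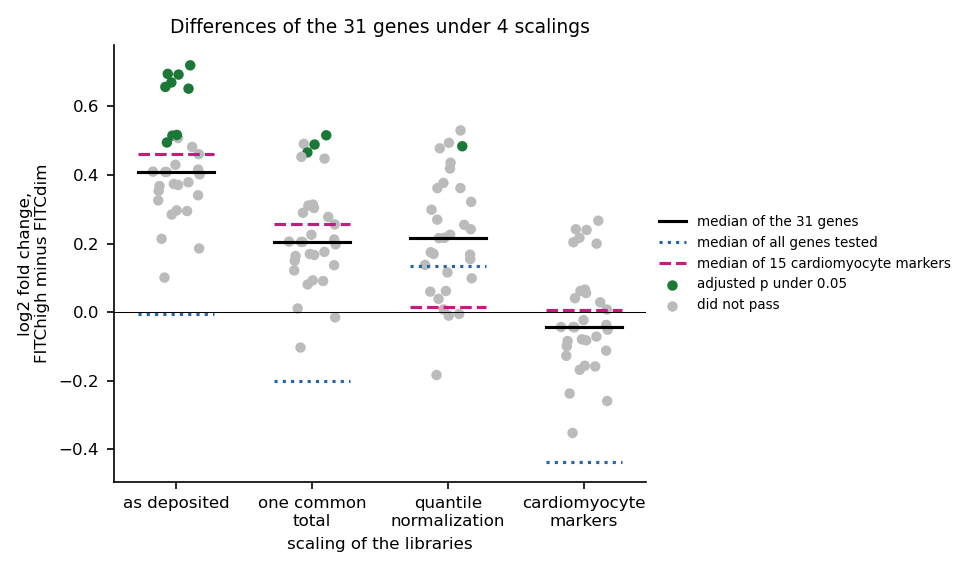
Log2 fold change of each of the 31 genes (points) with libraries as deposited, scaled to one common total, quantile normalized, or scaled to the geometric mean of 15 cardiomyocyte markers. Green points passed the adjusted test (9, 3, 1 and 0 genes). The black line is the median of the 31 genes, which stays near the dashed marker median except after quantile normalization, and the dotted line is the median of all tested genes.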

How the data were processed

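Each deposited number is a signal, namely a read count that the authors had adjusted, as the values show, to a shared library size, and it is not per length. Per the submitters' processing notes, STAR 2.5, edgeR and the build mm10 were used, and per the labels' protocols a stranded mRNA kit was read as pairs of 75 bp. For the counting program, annotation and strand setting: not given in the sources used here. Of 23410 lines, 6 were garbled and left out. Columns were matched to samples by title, and replicates were numbered in accession order.

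The test was limma-trend (limma 3.58.1, R 4.3.3) on log2(value + 1), two-sided and without a block. It took the 12907 genes that reached 1 in 3 or more of 6 libraries, with Benjamini-Hochberg adjustment over all of them and a threshold of 0.05. This scale understates fold changes of low genes. Whole reads, used for depth and for limma-voom, were recovered by undoing a quantile adjustment of negative binomial type with dispersion 0.0203. At least 99.99% of values in each library came out whole within 0.1 reads. The fit was also run on simulated data, where genes varied independently and changes were larger than those of the 31 genes. Its outcome is not given here and does not bear on their calls.

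All genes of the rule are reported, with full statistics for those past the test, with the highest mean of a role or with the largest or smallest difference. Genes and lists were chosen with earlier results of these data known. Positions and coding lengths are those of GENCODE M21.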

Additional observations from a re-analysis of the deposited data

How the results depend on the processing

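The number of the 31 genes that rose was 9, of which 6 were of complex III and cytochrome c, 3 Atp5 genes and 0 of complex II. It was 3 (2, 1 and 0) with one common total, 1 (1, 0 and 0) after quantile normalization and 0 (0, 0 and 0) without the mean-variance trend. Robust limma and limma-voom each gave 11, with 5 Atp5 genes. With cardiomyocyte marker scaling, chosen after seeing the data, it was 0 (0, 0 and 0). Without 1 library it ran from 1 to 9, from 1 to 6 for complex III and cytochrome c and from 0 to 4 for the Atp5 genes. Other pseudocounts (0.5 and 5), no filter and a stricter filter left 8 or 9. The count of genes that fell was 0 in all of these settings.

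The gates carry the same title tags (none, 1-2, 3-4), which the labels do not explain. Deviations of same-tagged libraries from their gates' means correlated at 0.07, 0.13 and 0.17 across tested genes, and each library correlated best with its own tag. Libraries of different tags correlated from -0.12 to -0.008. As 1 of the 3 same-tag values is below 0.1 and the tags are unexplained, they were not taken as pairs. Whether same-tagged libraries belong together was not settled, and the counts of the main test rest on that choice. With the tag as a replicate block 28 of the 31 rose (4 of complex II, 10 of complex III and cytochrome c, 14 Atp5 genes), against 8.24% of all tested genes. With the block and one common total, 12 rose, against 2.01% of all tested genes. With the block and cardiomyocyte marker scaling, 4 rose (3 of complex III and cytochrome c, 1 Atp5 gene) and 1, Atp5g1, fell, against 0.294% and 41.9% of all tested genes. Both combinations were chosen after seeing the data.

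With cardiomyocyte marker scaling, with or without the block, 19 differences turned: Sdha -0.156, Sdhb -0.037, Sdhc -0.099, Sdhd -0.112, Cyc1 -0.168, Uqcrh -0.043, Atp5a1 -0.044, Atp5b -0.079, Atp5c1 -0.127, Atp5e -0.237, Atp5g1 -0.352, Atp5g2 -0.071, Atp5f1 -0.023, Atp5h -0.051, Atp5o -0.158, Atp5j2 -0.082, Atp5k -0.043, Atp5l -0.084 and Atp5s -0.259. Atp5g1 (-0.103) and Atp5s (-0.015) turned with one common total, with or without the block. After quantile normalization Sdha (-0.01), Atp5o (-0.005) and Atp5g1 (-0.183) turned. Over the left-out libraries Atp5g1 ran from -0.122 to 0.309, below 0 without FITChigh replicate 2 (-0.078) and without FITCdim replicate 3, and Atp5e from -0.152 (without FITCdim replicate 3) to 0.444. The cause was not tested. The edgeR and DESeq2 alternatives were not run: the deposited values are adjusted counts, and limma-voom is the only fit made to the recovered reads.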

Other observations

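The spread of the 31 genes within a gate went with the length of their coding sequence. Across the 31 genes, the deviation of FITChigh replicate 2 from its gate's mean had a Pearson r of -0.71 with log2 coding length, and that of FITCdim replicate 2 one of -0.79. For FITChigh replicate 3 and FITCdim replicate 3 it was 0.66 and 0.39. The 16 genes with a coding length under 500 bp, among them the small subunits of complex III and the e, f and g subunits of the ATP synthase, stood at a median of 0.30 above the gate's mean in FITChigh replicate 2 and 0.35 in FITCdim replicate 2. The 15 longer genes stood at 0.17 and 0.20. These points share a library and its preparation, so the values describe the libraries only. The difference between the gates had an r of -0.21 with log2 coding length and of 0.14 with mean level over the same 31 genes.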
